A study of Homo sapiens with 49 samples.

Results

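The keratin genes were taken as every gene symbol of the array annotation that consists of KRT, a number and at most 1 further letter. This gave 45 genes among 19774 on the array, each read by its probe set of highest mean over all 49 arrays. A keratin gene was tested if that probe set exceeded a log2 level of 4 on 6 or more arrays, and 7 of the 45 did: KRT7, KRT8 and KRT80 of type II, and KRT10, KRT18, KRT19 and KRT23 of type I. They were tested within a fit of 11075 genes. The cells were Ishikawa cells, an established human endometrial adenocarcinoma line that responds to estrogens. They received ethinyl estradiol (EE), a synthetic estrogen, dissolved in ethanol, for 72 hours in phenol red-free medium that was partly renewed each day. There were 8 groups: ethanol vehicle, and EE at 0.1, 0.3, 1, 3, 10, 100 and 1000 pM. Each had 6 arrays, except 0.3 pM with 7. The labels number the replicates without saying whether they were separate cultures, so the p-values measure only how much these samples vary, and that variation may be technical.

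Keratins are the intermediate filament proteins of epithelial cells, and a filament is built from an acidic type I keratin paired with a basic type II keratin. In simple, single-layered epithelia such as the endometrial lining the standing pair is KRT8 (type II) with KRT18 (type I), joined in many glandular epithelia by KRT7 (type II) and KRT19 (type I). Keratinocytes of stratified skin and the hair follicle use other pairs, and the genes lie in a type I and a type II cluster on separate chromosomes, with KRT18 beside KRT8 in the type II cluster as the known exception. KRT80 is a type II keratin found near cell-cell contacts of many epithelia.

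The arrays were alike in their overall level, with medians over all probe sets between 2.95 and 3.05 and between 38.2% and 39.6% of probe sets above 4. The treatment was seen in the estrogen-responsive genes PGR (the progesterone receptor), which was 5.13 ± 0.21 (SE) log2 units higher at 1000 pM than in vehicle (limma, adjusted p = 1.27e-24), and GREB1, at 2.63 ± 0.11. All 7 epithelial marker genes (EPCAM, CDH1, CLDN3, CLDN4, CLDN7, MUC1 and ESRP1) and all 4 Mullerian marker genes on the array (PAX8, EMX2, SOX17 and WT1) passed the level filter. None of the 5 endothelial, 5 immune and 3 squamous marker genes on the array did. Of 7 stromal marker genes, COL1A1 and COL3A1 passed, and the other 5 (DCN, LUM, PDGFRA, PDGFRB and THY1) stayed at or under 4 on every array. The summed log2 level of the 7 ran from 25.9 to 27.8 over the vehicle arrays and from 25.3 to 26.6 at 1000 pM. The gap between the 3′ and 5′ probe sets of beta-actin, a common check of RNA and labelling quality, was 2.67 to 4.62 log2 units on 4 arrays and 0.80 to 2.06 on the other 45. The 4 were replicate 5 of vehicle, replicate 2 at 0.3 pM, and replicate 6 at both 3 and 1000 pM. Keratin results are therefore also given without these 4.

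The keratins above the floor were those of simple epithelium, with 3 others. Of the simple-epithelium keratins on the array KRT7, KRT8, KRT18 and KRT19 were tested, and KRT20, known from gut and urothelium, was not. Of the epidermal and stratified keratins 1 was tested, KRT10 of differentiating epidermis, and 15 were not. None of the 13 hair and nail keratins and none of the 7 hair follicle sheath keratins passed. Keratins without a symbol of their own in the annotation were not assessed, among them KRT6A, KRT6B, KRT6C, KRT81, KRT82 and KRT86. Their levels are unknown here. The remaining tested genes were KRT23 and KRT80, both listed here under other epithelium, while KRT24 of that class and KRT222, left without a class, were not tested. By type, 3 type II keratins passed and 17 did not, and 4 type I keratins passed and 20 did not.

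The 38 keratins not tested had means between 1.64 and 2.95, and none of them exceeded 4 on a single array. The highest single value among them was 3.67, for KRT79, a keratin of skin glands, followed by 3.52 for KRT83, a hair keratin. The epidermal basal keratin KRT5 had a mean of 2.71. These levels lie where the authors' background correction compresses signals, so they are a bound and not a measurement.

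**Figure D1:**
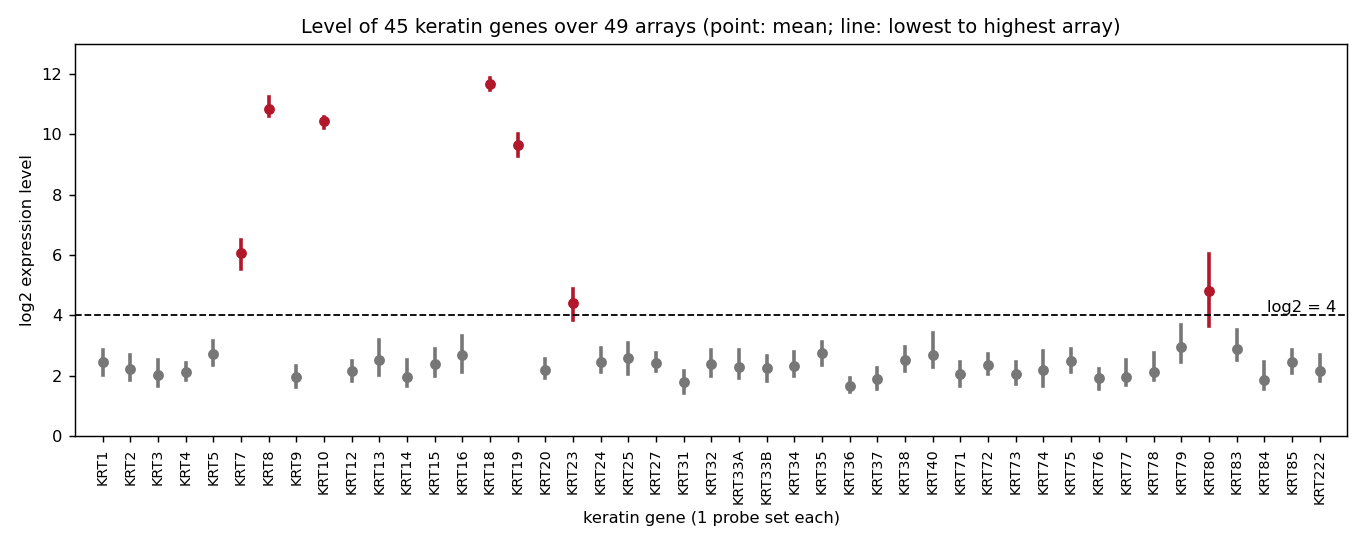
Log2 level of each of the 45 keratin genes over 49 arrays, 1 probe set each, with the mean as a point and a line from the lowest to the highest array. The 7 tested genes are red and reach above the dashed floor of 4, and the other 38, in grey, end at or below 3.67. Probe sets differ in their response, so levels are not ranked between genes.

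KRT80 (Entrez 144501) fell as EE rose. In vehicle its log2 level ran from 4.87 over a median of 5.33 to 6.02, and at 1000 pM from 3.65 over 3.94 to 4.34. Every array at 1000 pM lay below every vehicle array. The group means were 5.39 ± 0.39 (SD, n = 6) and 3.98 ± 0.30 (n = 6), a change of -1.41 ± 0.16 (SE), or 2.66-fold lower (limma, adjusted p = 3.56e-09). It was the rank 2 fall among all 11075 genes tested at that concentration. These are levels in bulk RNA, in which fewer cells of a kind and less RNA per cell cannot be told apart.

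The decline of KRT80 ran over the middle of the concentration range. At 0.1 pM the arrays lay between 4.84 and 5.49 (median 5.18), at 0.3 pM between 4.91 and 5.83 (median 5.29) and at 1 pM between 4.86 and 5.34 (median 5.17). These 3 groups overlapped vehicle, and their changes of -0.20 ± 0.16, -0.12 ± 0.16 and -0.27 ± 0.16 did not pass (limma, adjusted p = 0.686, 0.952 and 0.534). At 3 pM the arrays ran from 4.57 over 4.87 to 5.48, a change of -0.43 ± 0.16 that did not pass (limma, adjusted p = 0.91). At 10 pM they ran from 4.23 over 4.59 to 4.89. That was a change of -0.81 ± 0.16, or 1.75-fold lower, and passed (limma, adjusted p = 0.0021), although the highest array at 10 pM lay above the lowest vehicle array. A fit on the arrays of these 2 groups alone lost the call (adjusted p = 0.0968).

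At 100 pM KRT80 ran from 3.66 over 4.07 to 4.29, with no overlap with vehicle, and was lower by 1.36 ± 0.16 (2.56-fold; limma, adjusted p = 1.37e-08). The step from 100 to 1000 pM was -0.06 ± 0.16, with a 95% interval from -0.38 to 0.27 (limma, adjusted p = 0.981). At each of these concentrations 3 of 6 arrays lay above 4, whereas all arrays of the other 6 groups did. The level at 100 and 1000 pM thus reached the compressed range, and the size of the fall is uncertain there. KRT80 had a single probe set on the array.

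KRT7 (Entrez 3855), the simple-epithelium type II keratin used in pathology to tell glandular tumors apart, also fell, by less. In vehicle it ran from 6.02 over 6.34 to 6.43, at 100 pM from 5.52 over 5.66 to 5.76 and at 1000 pM from 5.54 over 5.69 to 5.82. Neither of the high groups overlapped vehicle. The mean went from 6.27 ± 0.17 (SD, n = 6) in vehicle to 5.67 ± 0.09 (n = 6) at 1000 pM, a change of -0.60 ± 0.08, or 1.51-fold lower (limma, adjusted p = 2.61e-07), which was rank 98 among the falls. At 100 pM the change was -0.61 ± 0.08 (limma, adjusted p = 2.21e-07). All KRT7 arrays lay well above the floor. KRT7 had 4 probe sets, of which this 1 passed the level filter.

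Below 100 pM the KRT7 means were 6.23 ± 0.15 at 0.1 pM, 6.27 ± 0.17 at 0.3 pM, 6.24 ± 0.11 at 1 pM, 6.11 ± 0.16 at 3 pM and 5.98 ± 0.10 at 10 pM. The first 3 differed from vehicle by no more than 0.04 log2 units. The change at 10 pM was -0.29 ± 0.08 and did not pass (limma, adjusted p = 0.0682). From 10 to 100 pM KRT7 fell by 0.31 ± 0.08 with no overlap between the groups (limma, adjusted p = 0.038). From 100 to 1000 pM the difference was 0.01 ± 0.08, with an interval from -0.15 to 0.18 (limma, adjusted p = 0.995).

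For KRT80 the step from 10 to 100 pM was -0.55 ± 0.16 and did not pass in the fit of all groups (limma, adjusted p = 0.108). Without the arrays with a high actin difference, this step of KRT80 was -0.55 ± 0.13 and passed (limma, adjusted p = 0.00974). The replicate numbers of these 2 groups pair the arrays: all 6 same-numbered pairs deviated together, with correlations over all genes of 0.271 or more. With the replicate block on the 12 arrays of these groups, the step of KRT80 passed with adjusted p = 0.00134 and that of KRT7 with 0.0022. The paired fit also called a small rise, in KRT10, by 0.11 ± 0.03 (limma, adjusted p = 0.0222). Without the block on the same arrays the values were 0.0289 for KRT80, 0.0229 for KRT7 and 0.553 for KRT10. On these 12 arrays 8.25% of all genes were called with the block and 1.75% without it, against 0.984% in the fit of all groups.

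**Figure D2:**
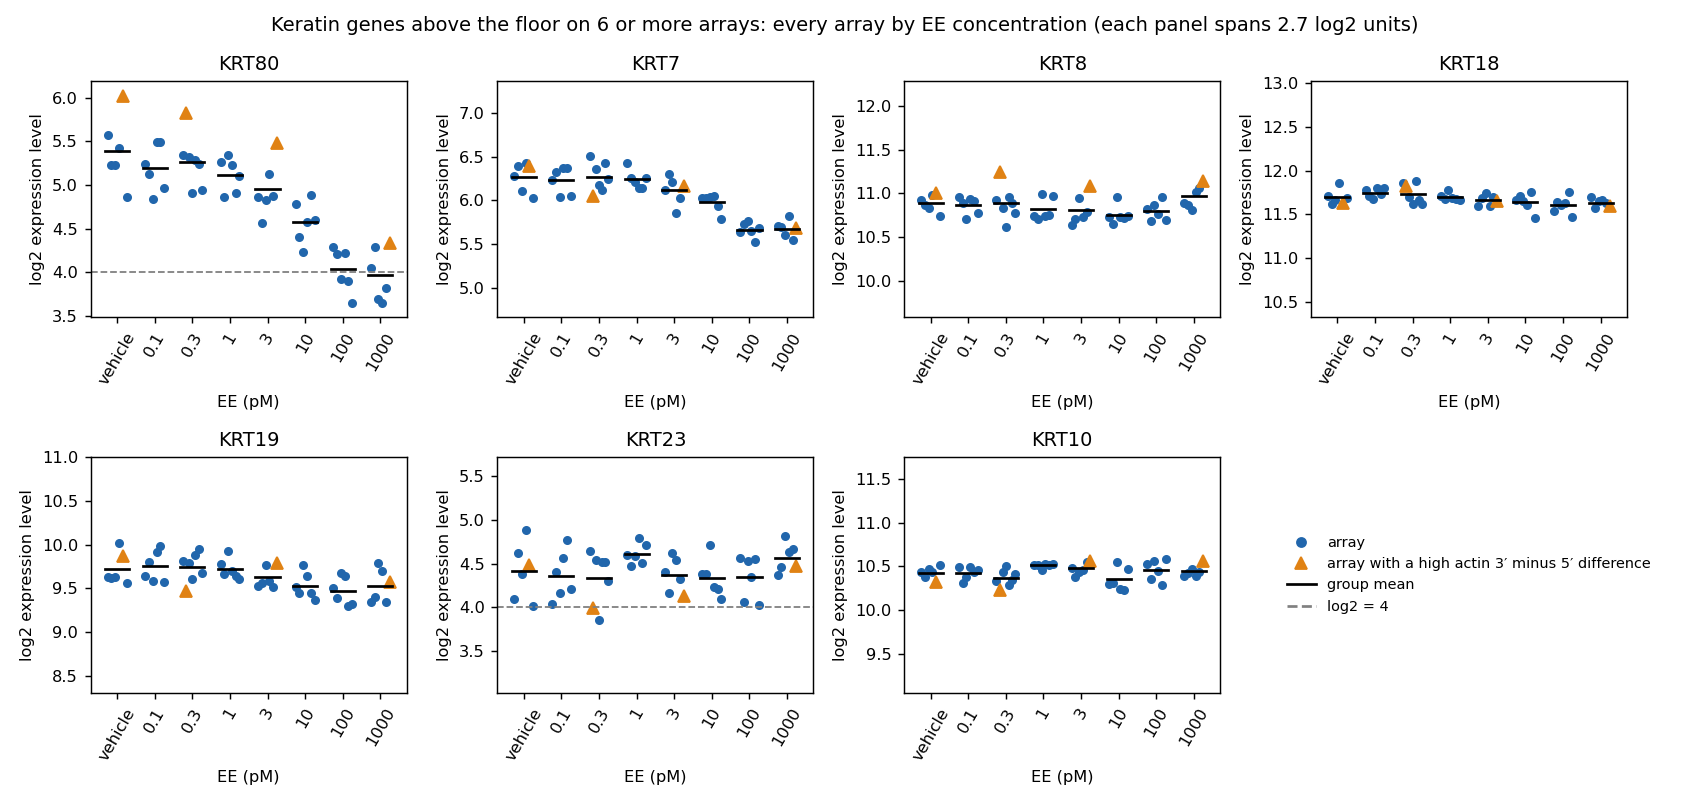
Log2 level of the 7 tested keratin genes on every array (points) by EE concentration in pM, with group means as bars. Triangles mark the 4 arrays with a high actin difference and the dashed line the floor of 4. Every panel spans the same log2 range, in which KRT80 and KRT7 step down toward 100 and 1000 pM.

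A curve of slope 1 fitted to the log2 levels of all 49 arrays placed the midpoint of the KRT80 decline at 8.91 pM (95% interval 4.47 to 15.8) and that of KRT7 at 10 pM (5.62 to 20.0). The intervals overlap, and a difference between the midpoints was not tested. With slope 0.5 the midpoints moved to 14.1 and 20.0 pM, with intervals reaching 44.7 and 70.8 pM. With slope 2 they were 8.91 and 10 pM. The fitted curves accounted for 0.788 and 0.783 of the variance.

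**Figure D3:**
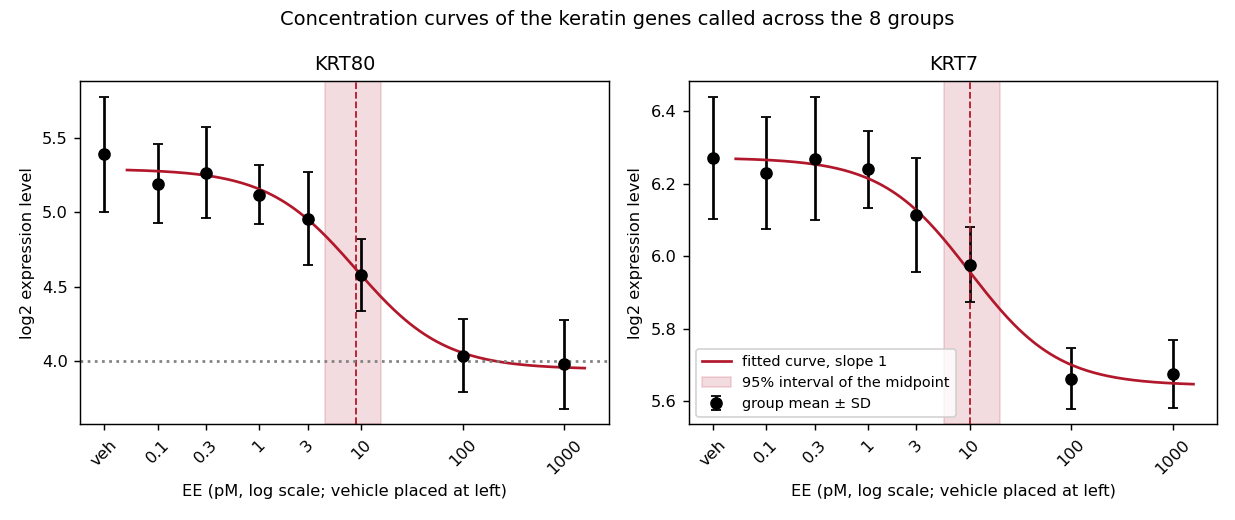
Group means ± SD (n = 6, and 7 at 0.3 pM) of KRT80 and KRT7 on the log2 scale against EE in pM on a log axis, with vehicle at the left. The red curve has slope 1, the dashed line is its midpoint, the dotted line is the floor of 4, and the shaded band is the 95% interval of its midpoint, 4.47 to 15.8 pM for KRT80 and 5.62 to 20.0 pM for KRT7.

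Counted over the 7 tested keratins, calls against vehicle appeared from 10 pM on, and each of them was a fall. At 0.1, 0.3 and 1 pM limma called 0 keratins, none of them with an unadjusted p under 0.05, and 0% of all genes. At 3 pM it called 0 keratins (1 with an unadjusted p under 0.05, KRT80) and 0.153% of all genes. At 10 pM it called 1 keratin, KRT80, where 0.858% of all genes were called. At 100 pM it called 2 keratins, KRT80 and KRT7, where 10.1% of all genes were called in either direction and 6.27% as lower. At 1000 pM the same 2 were called, beside 7.21% of all genes in either direction and 4.33% as lower. The median change of the 7 keratins at 1000 pM was -0.06, against -0.01 over all genes. These comparisons share the vehicle arrays.

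Between consecutive concentrations, the step from 10 to 100 pM held 1 called keratin, KRT7, in the fit of all groups with every array. There 0.984% of all genes were called. Without the arrays with a high actin difference KRT80 was also called in that step (limma, adjusted p = 0.00974). With every array, 3 keratins had an unadjusted p under 0.05 in that step: KRT7 and KRT80, both lower, and KRT10, higher. The step from 3 to 10 pM held 0 keratins (2 with an unadjusted p under 0.05, KRT80 and KRT10), where 0.153% of all genes were called. The step from 100 to 1000 pM held 0 (1 with an unadjusted p under 0.05, KRT8), where 0% of all genes were called. From 0.3 to 1 pM 0 keratins were called. KRT10 and KRT23, both higher, had an unadjusted p under 0.05 there, as had 452 of all 11075 genes. The steps from 0.1 to 0.3 pM and from 1 to 3 pM held 0 keratins, also by unadjusted p. Replicate numbers also paired the arrays of 1 with 3 pM and of 3 with 10 pM. With the replicate block on the arrays of each step, no keratin passed in either. KRT80 gave -0.38 ± 0.12 from 3 to 10 pM (limma, adjusted p = 0.8), where 18 of all genes were called. From 1 to 3 pM its adjusted p was 0.82 (limma), where 4 were called. The F test for any difference among the 8 groups called 6.99% of all genes and 2 keratins, KRT80 (adjusted p = 3e-11) and KRT7 (3.59e-10). For the other 5 its adjusted p ran from 0.0841 (KRT19) to 0.826 (KRT23).

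A comparison without the vehicle arrays set 100 and 1000 pM (12 arrays) against 0.1 and 0.3 pM (13 arrays). Here 4 keratins fell and 0 rose, where 13.0% of all genes were called and 7.91% fell. KRT80 was lower by 1.22 ± 0.11 (2.34-fold; limma, adjusted p = 3e-12), with 12 of 12 high-concentration arrays below the low-concentration mean. KRT7 was lower by 0.58 ± 0.06 (limma, adjusted p = 1.72e-11). The other falls were small, in KRT19 and KRT18.

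KRT19 (Entrez 3880), the small type I keratin of simple and ductal epithelium, was lower by 0.25 ± 0.06 in the pooled comparison, or 1.19-fold (limma, adjusted p = 0.00335), with 11 of 12 arrays below the low-concentration mean. In vehicle its arrays ran from 9.57 over 9.63 to 10.01, at 100 pM from 9.30 over 9.44 to 9.68 and at 1000 pM from 9.34 over 9.49 to 9.79. The groups overlapped. Against vehicle the changes of -0.25 ± 0.09 at 100 pM and -0.20 ± 0.09 at 1000 pM did not pass (limma, adjusted p = 0.0619 and 0.217). The group means stepped from 9.72 ± 0.12 at 1 pM to 9.63 ± 0.12 at 3 pM and 9.53 ± 0.15 at 10 pM, steps within the spread of the arrays.

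KRT18 (Entrez 3875), the type I partner of KRT8, was lower by 0.12 ± 0.03 in the pooled comparison, or 1.09-fold (limma, adjusted p = 0.0053), again with 11 of 12 arrays below the low-concentration mean. Its arrays ran from 11.62 over 11.68 to 11.86 in vehicle, from 11.46 over 11.62 to 11.75 at 100 pM and from 11.58 over 11.64 to 11.69 at 1000 pM. These groups overlapped, and the change at 1000 pM was -0.06 ± 0.05 with an interval from -0.15 to 0.03 (limma, adjusted p = 0.517). The highest group mean was 11.75 ± 0.05 at 0.1 pM, and the means at 0.1 and 0.3 pM differed from vehicle by 0.05 and 0.04, which did not pass.

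KRT8 (Entrez 3856), the type II partner of KRT18, did not pass in any comparison. Its arrays ran from 10.74 over 10.89 to 11.00 in vehicle and from 10.81 over 10.95 to 11.14 at 1000 pM, and the groups overlapped. The change was 0.07 ± 0.08 (limma, adjusted p = 0.639), with an interval from -0.08 to 0.22. In the pooled comparison the interval ran from -0.10 to 0.11 around 0.0024 (limma, adjusted p = 0.988). Between KRT8 and KRT18 the difference in response was not tested. The probe sets of both carry a suffix that marks probes shared with similar transcripts, and both genes have many processed copies in the genome, so their levels may include such transcripts.

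KRT10 (Entrez 3858), the type I keratin of suprabasal epidermis, kept its arrays between 10.32 and 10.51 in vehicle (median 10.43) and between 10.39 and 10.56 at 1000 pM (median 10.43). The change was 0.020 ± 0.050 (limma, adjusted p = 0.865), with an interval from -0.08 to 0.12. KRT10 was the only tested keratin with more than 1 passing probe set: its 3 gave 0.02, -0.02 and 0.10 at 1000 pM, and none was called. All 3 also carry a suffix for probes shared between transcripts, as do the probe sets used for KRT7 and KRT23. The levels of these genes may therefore include other transcripts. From 10 to 100 pM its mean went from 10.35 ± 0.13 (SD, n = 6) to 10.46 ± 0.12 (n = 6), with overlap. This step did not pass in the fit of all groups (limma, adjusted p = 0.764) and passed in the paired fit (0.0222).

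KRT23 (Entrez 25984), a type I keratin reported in several glandular tumors, lay close to the floor, with 47 of 49 arrays above 4. It ran from 4.02 over 4.44 to 4.88 in vehicle and from 4.37 over 4.55 to 4.81 at 1000 pM. The change of 0.15 ± 0.14 did not pass (limma, adjusted p = 0.592), and its interval ran from -0.13 to 0.43. Leaving out single arrays moved it between 0.07, without vehicle replicate 6, and 0.25, without vehicle replicate 4, and it passed in none of these fits. The highest group mean, 4.61 ± 0.12, was at 1 pM.

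**Figure D4:**
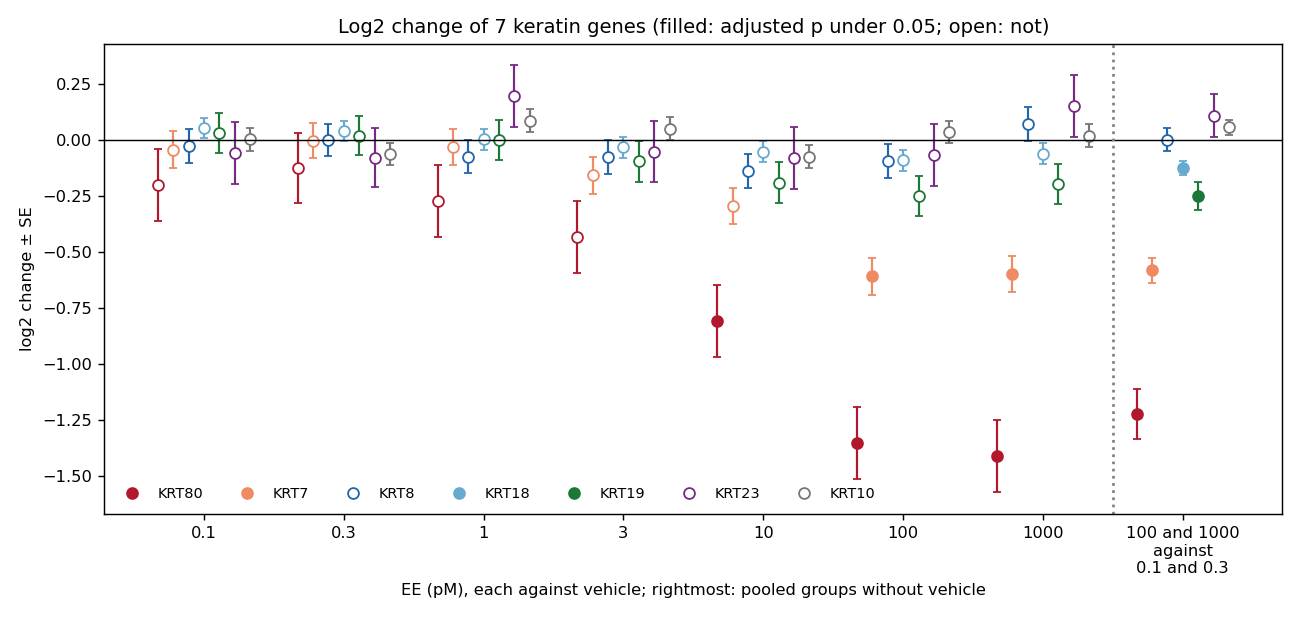
Log2 change ± SE of the 7 tested keratin genes at each EE concentration in pM against vehicle and, at the right, at 100 and 1000 pM pooled against 0.1 and 0.3 pM pooled. Filled points have an adjusted p under 0.05: KRT80 from 10 pM, KRT7 from 100 pM, and these with KRT18 and KRT19 in the pooled comparison.

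Of the 7 tested keratins 2 had a promoter window in RefSeq (GRCh38.p14), KRT8 and KRT10. Their 250 bases before the gene start are shown as the letters behind a gene that passed in no comparison (KRT8) and one that passed only in the paired step from 10 to 100 pM (KRT10). KRT8 lies on the minus strand at chr12:52926470-52926719 (50.4% G and C), and KRT10 on the minus strand at chr17:40822615-40822864 (34.8%). Capitals mark the motif matches.
KRT8: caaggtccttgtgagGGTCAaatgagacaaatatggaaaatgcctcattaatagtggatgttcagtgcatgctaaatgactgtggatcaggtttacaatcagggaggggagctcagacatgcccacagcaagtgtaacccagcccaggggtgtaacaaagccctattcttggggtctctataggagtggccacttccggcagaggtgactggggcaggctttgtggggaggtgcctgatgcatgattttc
KRT10: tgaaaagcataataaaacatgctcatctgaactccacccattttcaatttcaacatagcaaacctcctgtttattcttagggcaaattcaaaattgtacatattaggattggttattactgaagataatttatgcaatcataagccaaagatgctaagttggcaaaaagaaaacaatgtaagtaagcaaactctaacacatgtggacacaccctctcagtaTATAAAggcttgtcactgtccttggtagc
On both strands, 5 motifs were searched. The estrogen receptor core site GGTCA matched once in KRT8, at 235 to 231 bases before the start, and is present in 32.6% of 35116 such windows. The TATA box TATAAA matched once in KRT10, at 29 to 24 bases before the start, and is present in 10.7% of windows. The GC box GGGCGG (42.6% of windows) and the AP-1 site TGANTCA (6.57%) matched neither. The full estrogen response element, an inverted pair of core sites 3 bases apart, also matched neither and is present in 14 windows (0.0399%). A match is a run of letters and not a measured binding site.

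Leaving out the 4 arrays with a high actin difference kept KRT80 and KRT7 below vehicle at 100 and 1000 pM. KRT80 changed by -1.36 ± 0.14 at 1000 pM (limma, adjusted p = 2.61e-10) and by -0.68 ± 0.14 at 10 pM (adjusted p = 0.00155), and KRT7 by -0.57 ± 0.09 at 1000 pM (adjusted p = 1.66e-06). At 1000 pM this fit called 8.81% of all genes. In the step from 10 to 100 pM this fit called KRT80 (-0.55 ± 0.13, limma adjusted p = 0.00974), which the fit with every array did not. It also called KRT7 there (-0.31 ± 0.08, limma adjusted p = 0.0148). In the pooled comparison, where it called 21.2%, KRT19 gave -0.28 ± 0.06 (adjusted p = 0.000498) and KRT18 -0.11 ± 0.03 (adjusted p = 0.0103). The F test then also called KRT19 (adjusted p = 0.0198). KRT80 and KRT8 were the highest array of their group on all 4 of these arrays, KRT10 on 2, KRT19 on 1 and the other 3 keratins on none. For KRT80 the values were 6.02 in vehicle (others up to 5.57), 5.83 at 0.3 pM (5.34), 5.48 at 3 pM (5.12) and 4.34 at 1000 pM (4.29). The part of the actin difference in these high values was not tested.

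Desmosomes and plakins anchor and link keratin filaments, and the list of their genes also held genes of other junctions. Of 16 tested genes of this list 2 rose, 3 fell and 11 did not pass at 1000 pM, with a median of -0.05, where 7.21% of all genes were called. ITGA6, an integrin subunit of the hemidesmosome, rose by 1.22 ± 0.10 (limma, adjusted p = 1.5e-13), and PKP4, a plakophilin of cell junctions, by 0.25 ± 0.05 (adjusted p = 0.000175). JUP (plakoglobin of the desmosomal plaque) fell by 0.64 ± 0.13 (limma, adjusted p = 0.000598), the linker PPL (periplakin) by 0.60 ± 0.12 (adjusted p = 0.00046) and EPPK1 (epiplakin) by 0.35 ± 0.09 (adjusted p = 0.0115). DSP, the desmoplakin that ties keratin to desmosomes, gave -0.04 ± 0.05 and did not pass.

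Of 7 tested intermediate filament genes outside the keratins 1 rose and 0 fell at 1000 pM, where 7.21% of all genes were called. The rise was in LMNB1 of the nuclear lamina, by 0.22 ± 0.06 (limma, adjusted p = 0.00965). At 100 pM, where 10.1% of all genes were called, LMNB1 rose by 0.20 ± 0.06 (limma, adjusted p = 0.0199). PRPH (peripherin), a neuronal filament gene, fell there by 0.39 ± 0.12 (adjusted p = 0.0335). In the pooled comparison, where 13.0% of all genes were called, LMNB1 rose by 0.14 ± 0.04 (limma, adjusted p = 0.0122). PRPH fell there by 0.25 ± 0.08 (adjusted p = 0.0444) and INA (internexin), also neuronal, by 0.26 ± 0.08 (adjusted p = 0.0282). VIM (vimentin), the filament gene of mesenchymal cells, gave -0.01 ± 0.19 and did not pass. Of 21 cornified envelope and squamous genes on the array 1 was tested, CSTA, and it did not pass (-0.10 ± 0.17; limma, adjusted p = 0.806). Of 16 tested keratin chaperones, regulators and turnover genes 0 were called at 1000 pM (limma), and 1 at 100 pM, where 10.1% of all genes were called. It was PNN (pinin), which binds keratins (-0.13 ± 0.04, limma adjusted p = 0.0389). Whether these counts differ from the shares over all genes was not tested.

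Among 20 tested transcription factors and regulators of epithelial and keratin genes, 3 rose, 6 fell and 11 did not pass at 1000 pM, with a median of -0.07. At that concentration 7.21% of all genes were called in either direction and 4.33% as lower. FOSL2, an AP-1 subunit, rose by 1.10 ± 0.17 (limma, adjusted p = 2.58e-06) and EHF, an epithelial ETS factor, by 0.72 ± 0.11 (adjusted p = 2.07e-06). CEBPB, a factor of the C/EBP family, rose by 0.32 ± 0.07 (adjusted p = 0.000499). At 100 pM CEBPB did not pass (0.12 ± 0.07, limma adjusted p = 0.208). Of the other AP-1 subunits JUN fell by 0.98 ± 0.08 (adjusted p = 6.56e-13) and JUNB by 0.51 ± 0.11 (adjusted p = 0.000632), whereas JUND gave -0.07 ± 0.09 and did not pass (adjusted p = 0.741). ESRP2 fell by 0.44 ± 0.08 (limma, adjusted p = 8.32e-05) and ETS2 by 0.41 ± 0.07 (adjusted p = 3.91e-05). The remaining falls were in OVOL1, by 0.39 ± 0.12 (limma, adjusted p = 0.0293), and OVOL2, by 0.33 ± 0.09 (adjusted p = 0.0211). At 100 pM 3 genes of this list rose and 7 fell, where 10.1% of all genes were called and 6.27% as lower. ELF3 fell there by 0.71 ± 0.17 (limma, adjusted p = 0.00411) and ETS1 rose by 0.29 ± 0.10 (adjusted p = 0.0464). Neither passed at 1000 pM (limma, adjusted p = 0.174 and 0.452).

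Over the 49 arrays, the genes whose levels ran most like KRT80 were IGFBP5 (Pearson r = 0.908), JUN (0.893), NRG1 (0.890), HES1 (0.889) and RGS3 (0.887). For KRT7 they were RAB20 (0.866), LYPD6B (0.864), CDK6 (0.861), S100A10 (0.850) and L1CAM (0.849). All 10 had 6 of 6 arrays at 1000 pM below the vehicle mean, with changes from -0.51 ± 0.09 for RAB20 to -1.16 ± 0.20 for L1CAM. The arrays share their concentration groups, so any gene that falls over the same range ranks high here. KRT80 and KRT7 had r = 0.819 with each other in their levels and 0.151 in their deviations from the group means.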

How the data were processed

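The values are log2 expression levels that the authors deposited for 54715 probe sets on 49 Affymetrix arrays, 1 per RNA sample. They were made with GCRMA and Partek per the submitters' processing notes, whose versions were not given in the sources used here, and GCRMA compresses low signals. The annotation gave 1 symbol for 40920 probe sets, several for 864 and none for 12931. Entrez identifiers changed 0 names, no column was unused, and keratins without a symbol of their own in the annotation were not analysed here. The probe set of highest mean over all arrays stood for a gene, which was tested if it exceeded log2 4 on at least 6 arrays.

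One limma model (limma version 3.58.1 under R version 4.3.3, with statmod version 1.5.0 and the package data.table in version 1.17.8) held all 8 groups, let the prior variance follow the mean level, and used Benjamini-Hochberg adjustment over all tested genes within each comparison (threshold 0.05). Calculations were tested on simulated data. Midpoints came from least-squares curves. Their intervals used the F distribution of the residual sum of squares. The number of arrays limits the precision.

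The keratin genes, gene lists and rules were chosen with earlier results of these data known. Every tested keratin is named. In each list at most 4 called genes of largest change are named. DSP, VIM, CSTA, PNN, PKP4, CEBPB, PRPH, INA, JUND, ESRP2, ETS2, OVOL1, OVOL2, ELF3 and ETS1 were added with their values known. Genes like KRT80 or KRT7 are the 5 of highest correlation for each. The labels name no batch. Pairing by replicate number was checked from deviations over all genes. The numbers paired 1 with 3 pM, 3 with 10 pM and 10 with 100 pM (all 6 pairs over 0.1). They paired no other comparison with vehicle or between consecutive concentrations, and further pairs of groups were not checked. Alternatives were other level filters, probe set rules, normalizations, variance priors, array weights, a stricter threshold, the replicate block and left-out arrays. Figures used Python 3.11.15, matplotlib 3.10.9 and pandas 2.3.3.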

Additional observations from a re-analysis of the deposited data

Results flagged for a closer look

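Among the 7 tested keratins in 8 groups, 56 sets of arrays, 2 held 1 array far from the others of its group, and chance alone would mark about 5% of such sets. KRT10 read 10.4625 on 1 pM replicate 3, with the other 5 arrays between 10.51 and 10.53. KRT8 read 10.9533 on 10 pM replicate 3, with the other 5 between 10.65 and 10.74. Neither array was among the 4 with a high actin difference.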

How the results depend on the processing

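KRT80 at 1000 pM stayed between -1.52 and -1.29 and was called in 27 of 27 alternatives, as was KRT7 between -0.65 and -0.57. In the pooled comparison KRT19 was called in 40 of 40 alternatives (highest limma adjusted p 0.00958) and KRT18 in 40 of 40 (0.0162). The counts of called keratins did not change by over 1.5 times, except that the F test called 4 with array weights in place of 2, and KRT80 at 10 pM lost its call with only the groups compared. Within that limit, the count at 100 pM against vehicle was 3 in place of 2 after quantile normalization and with the replicate block over all groups. The F test also called 3 with that block. Sign changes occurred in values close to 0. KRT10 at 1000 pM gave -0.00084 after quantile normalization, -0.0238 with array weights, -0.0244 and -0.00093 without the arrays over 4 and 5 median absolute deviations in the actin difference, and -0.00305 to 0.0382 on leaving out single arrays. KRT23 at 1000 pM gave 0.0726 to 0.246 on leaving out single arrays, with no call. KRT8 in the pooled comparison gave -0.0091 after quantile normalization, -0.0100 with array weights, -0.0074 with the replicate block, -0.0027 with the actin difference as a covariate and -0.0204 to 0.0321 on leaving out single arrays. The cause was not tested. The replicate block within the groups of a comparison ended no call of KRT7 or KRT80 at 100 or 1000 pM against vehicle (adjusted p = 0.0121 for KRT80 and 0.0163 for KRT7 at 1000 pM). At 10 pM against vehicle KRT80 did not pass with that block either (-0.81 ± 0.12, limma adjusted p = 0.0584). The block over the 12 arrays and leaving out arrays in the pooled comparison were chosen after seeing the data. A filter at log2 5 left KRT23 without a value. Signal over background limits KRT23, KRT80 at 100 and 1000 pM, and all 38 keratins not tested.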

Other observations

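In the order of RefSeq (used for neighbours alone), KRT80 and KRT7 lie next to each other at one end of the type II keratin cluster, and KRT8 and KRT18 at the other end. All keratins between them were under the floor or not on the array under a symbol of their own. Of the 5 coding genes outside KRT80, ACVR1B (-0.01 ± 0.07), TAMALIN (-0.02 ± 0.14) and ATG101 (-0.14 ± 0.08) did not pass at 1000 pM, and NR4A1 and SMIM41 were not tested. Of the 5 outside KRT18, TNS2 (-0.47 ± 0.14; limma, adjusted p = 0.034) and IGFBP6 (-0.40 ± 0.12; adjusted p = 0.0299) fell, EIF4B (0.14 ± 0.07) and SPRYD3 (-0.27 ± 0.10) did not pass, and SOAT2 was not tested. At 1000 pM 7.21% of all genes were called in either direction and 4.33% as lower. Whether the neighbours differ from these shares was not tested. These neighbours were looked at after the keratin values had been seen.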
